A study of Mus musculus with 31 samples.

Results

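The levels of 9 RNAs, grouped here as long noncoding RNAs, were followed by gene name through 31 polyadenylated RNA libraries of mouse brain. They were picked by name and are 9 of the 55401 genes counted in each library. The members were Malat1, Neat1, Meg3, Rian, Mirg, Miat, Snhg11, Kcnq1ot1 and Bc1. The name of the set is loose for 2 of them. GENCODE M21 types Snhg11 as protein coding, and Bc1 is a short RNA of 168 bases. CD11b+ microglia, collected from dissociated whole brain with antibody-coated magnetic beads against the surface integrin CD11b, gave 22 libraries, and the temporo-occipital cortex of other females gave 9. All mice were 13 months old and on the C57BL/6J background. PLCγ2-P522R is a knock-in that exchanges a proline for an arginine in the product of the endogenous Plcg2 gene, made with CRISPR/Cas9 and carried on both alleles. APP/PS1 mice carry the APPswe and PS1dE9 transgenes under the mouse prion protein promoter.

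The male CD11b+ libraries were from mice without APP/PS1, 3 wild type (WT) and 4 homozygous knock-in (KI). The female CD11b+ libraries were 7 without the transgenes and with wild-type Plcg2 (A-/Pwt/wt), 4 with the transgenes and wild-type Plcg2 (A+/Pwt/wt) and 4 with the transgenes and the knock-in (A+/Pki/ki). Cortex was female, with 4 A+/Pwt/wt, 4 A+/Pki/ki and 1 A-/Pwt/wt library. Each library was 1 mouse, named here by its number. One number, 236, stands on both a CD11b+ A-/Pwt/wt library and a cortex A+/Pwt/wt library, and both were used as labelled. The CD11b+ libraries held 16229831 to 25118180 reads assigned to genes and the cortex libraries 25226544 to 43129427.

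Most RNAs of this set are kept in the nucleus. Malat1 gathers in nuclear speckles, where splicing factors are stored, and Neat1 is the scaffold around which paraspeckles form. Meg3, Rian and Mirg are expressed from the maternal copy of the imprinted Dlk1-Dio3 locus, Kcnq1ot1 from the paternal copy of the Kcnq1 domain, Miat forms its own nuclear domains in neurons, and Snhg11 hosts small nucleolar RNAs. Bc1 differs in its place and its making: RNA polymerase III transcribes it in neurons, and it is carried out of the cell body into dendrites, where it binds poly(A)-binding protein and represses translation.

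All libraries were made after selection on oligo(dT), which binds runs of A. A poly(A) tail added after transcription is not part of an annotated sequence. Of the lines below, only that of Bc1 therefore shows runs of at least 6 A, and the others show annotated 3′ ends. Bc1 carries its A-rich part inside a short transcript. Malat1 and the long form of Neat1 are known to be cut at their 3′ ends by RNase P. The annotated ends shown need not be at that cut, which was not located here. The lines give the whole of Bc1 and the last 60 bases of the other transcripts, as DNA letters on the strand of the RNA, from the GENCODE M21 transcripts of GRCm38. Capitals mark runs of at least 6 A in Bc1 and the polyadenylation signal AATAAA in the others, searched on the transcript's strand alone.
Bc1-201, bases 1 to 168: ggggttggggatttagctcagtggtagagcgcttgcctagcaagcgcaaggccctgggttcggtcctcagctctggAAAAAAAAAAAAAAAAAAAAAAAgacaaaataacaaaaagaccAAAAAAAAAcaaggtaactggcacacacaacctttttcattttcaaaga
Malat1-201, bases 6924 to 6983: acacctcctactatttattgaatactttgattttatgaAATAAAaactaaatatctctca
Neat1-202, short form, bases 2945 to 3004: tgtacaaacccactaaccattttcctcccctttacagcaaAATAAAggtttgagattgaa
Neat1-201, long form, bases 20712 to 20771: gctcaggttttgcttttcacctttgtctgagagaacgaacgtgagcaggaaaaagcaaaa
Meg3-207, bases 1837 to 1896: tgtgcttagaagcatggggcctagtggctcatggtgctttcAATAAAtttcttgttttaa

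In Bc1 the stretch from base 77 to base 128 was 86.5% A, against 21.6% in the rest of the transcript, and it held runs of 23 and 9 A. The signal stood in the last 60 bases of Malat1-201, Neat1-202 and Meg3-207 and was not in that window of Neat1-201. It was in the same window of 31.1% of the 9100 annotated lincRNA transcripts of that length or more. The longest run of A anywhere in an annotated transcript was 41 in Kcnq1ot1, 23 in Bc1, 16 in Meg3, 15 in Rian, 12 in Malat1, 9 in Snhg11, 7 in Neat1, 5 in Mirg and 4 in Miat. Bc1, at 168 bases, is shorter than the inserts of 250 to 300 bases that were sequenced, and its 5′ part is related to the ID repeats of the genome. Whether either changed its count was not tested.

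The genes lie on 5 chromosomes of GRCm38. Malat1 (chr19:5795690-5802672, minus strand) and Neat1 (chr19:5824708-5845478, minus strand) are neighbours 22.0 kb apart. Meg3 (chr12:109541001-109571726), Rian (chr12:109603940-109661716) and Mirg (chr12:109729764-109749460) follow one another on the plus strand with gaps of 32.2 and 68.0 kb. Miat is at chr5:112213228-112229395 (minus) and Snhg11 at chr2:158375638-158386145 (plus). Kcnq1ot1 (chr7:143203458-143296549, minus) runs inside Kcnq1 on the opposite strand, and Bc1 (chr7:144914470-144914637, plus) lies on the same chromosome. Reads were counted without strand. Those of Malat1, Meg3, Miat and Kcnq1ot1 could therefore not be told apart from reads of the opposite-strand genes Gm37376, Gm26906, Gm26953 and Kcnq1, which share 453, 1228, 2260 and 121 exonic bases with them.

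The labels of tissue and genotype were checked first. Itgam, which encodes CD11b, stood at 307 to 640 CPM (counts per 1000000 reads, with libraries scaled by TMM over all 31) in CD11b+ libraries and at 6.84 to 16.9 CPM in cortex. Plcg2 was at 141 to 263 CPM in CD11b+ libraries and 4.81 to 8.54 CPM in cortex. In male CD11b+ libraries it was at 247 to 249 CPM in WT and 171 to 213 CPM in KI, without overlap. No overlap was seen for 30.8% of all genes tested there (15.4% with KI lower). In APP/PS1 females the ranges of Plcg2 overlapped between its genotypes, in CD11b+ libraries and in cortex. A level per gene does not read the exchanged amino acid, so Plcg2 did not check the knock-in label. App was at 1723 CPM in the cortex library without the transgene and at 2886 to 3477 CPM in the 8 with it. In female CD11b+ libraries App was at 652 to 1093 CPM in A-/Pwt/wt, 688 to 1125 CPM in A+/Pwt/wt and 561 to 1032 CPM in A+/Pki/ki. These ranges overlapped, so App did not check the transgene label of those 15 libraries. The CD11b+ libraries also held RNA of other brain cells in unequal amounts. A neuron score, the mean log2 CPM of 22 neuronal genes, ran from 2.37 to 6.58 across the 22 CD11b+ libraries, and from 8.87 to 9.01 in cortex. Reads of mitochondrial genes took 3.45% to 24.5% of the CD11b+ libraries and 4.03% to 5.58% of cortex.

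Each RNA had its own level in the 2 tissues, and the order of the groups differed between RNAs. Malat1 was at 426 to 1413 CPM in the CD11b+ libraries (median 659) and at 90.9 to 144 CPM in cortex. Neat1 followed with 296 to 845 CPM (median 496) and 44.5 to 106 CPM. For both, every CD11b+ library lay above every cortex library, which held for 22.6% of the 18541 genes tested between the A+/Pwt/wt tissues. For Malat1 the group means fell from male WT (1162 ± 221 CPM, SD, n = 3) through A+/Pki/ki, A-/Pwt/wt and male KI to A+/Pwt/wt CD11b+ (546 ± 97.1, n = 4), with neighbours in this order overlapping, and then to the 3 cortex groups, which also overlapped.

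The Dlk1-Dio3 RNAs, Miat and Snhg11 had the opposite order. Meg3 was at 4.17 to 59.2 CPM in CD11b+ libraries (median 13.6) and at 1043 to 1366 CPM in cortex. Rian was at 16.4 to 323 CPM (median 63.5) and 383 to 509 CPM. Snhg11 was at 3.26 to 34.8 CPM and 512 to 771 CPM. None of these 3 ranges overlapped between the tissues. Of the 18541 genes tested between the A+/Pwt/wt tissues, 50% did not overlap between all 22 CD11b+ and all 9 cortex libraries either (22.6% with CD11b+ higher and 27.4% with CD11b+ lower). Miat was at 0.437 to 8.74 CPM in CD11b+ libraries and 104 to 147 CPM in cortex, and Mirg at 0 to 0.974 CPM, with 2 libraries at 0, and 7.40 to 11.3 CPM. Kcnq1ot1 was low in both, at 2.60 to 8.40 CPM in CD11b+ libraries and 4.49 to 11.4 CPM in cortex, and its ranges overlapped.

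Bc1 was the member whose CD11b+ values enclosed its cortex values. It was at 15.9 to 845 CPM in CD11b+ libraries (median 122) and at 84.2 to 187 CPM in cortex (median 127). The highest CD11b+ library held 53.2 times the lowest, against 3.32 times for Malat1, 2.86 times for Neat1, 14.2 times for Meg3 and 19.7 times for Rian. A-/Pwt/wt mouse 223 held the highest values of Bc1, Meg3 and Rian (845, 59.2 and 323 CPM). The next highest were 415, 21.2 and 176 CPM, so the size of these ratios depends on 1 library. Without mouse 223 the ranges were still 15.9 to 415 CPM for Bc1, 4.17 to 21.2 CPM for Meg3 and 16.4 to 176 CPM for Rian. In cortex the ratio of highest to lowest was 2.22 for Bc1. Per kb of exon, Bc1 had the highest mean of the 9 in A+/Pwt/wt cortex, at 901 CPM per kb against 82.6 for Snhg11, 66.9 for Meg3 and 16.4 for Malat1. In A+/Pwt/wt CD11b+ libraries its mean level was 1044 CPM per kb against 78.3 for Malat1 and 19.1 for Neat1. The divisor was all annotated exons of a gene merged, 0.168 kb for Bc1, 18.1 kb for Meg3 and 20.8 kb for Neat1. Single transcripts can be much shorter than that, and Bc1 is shorter than the inserts sequenced. This order thus depends on the lengths used and does not rank the RNAs by abundance.

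**Figure D1:**
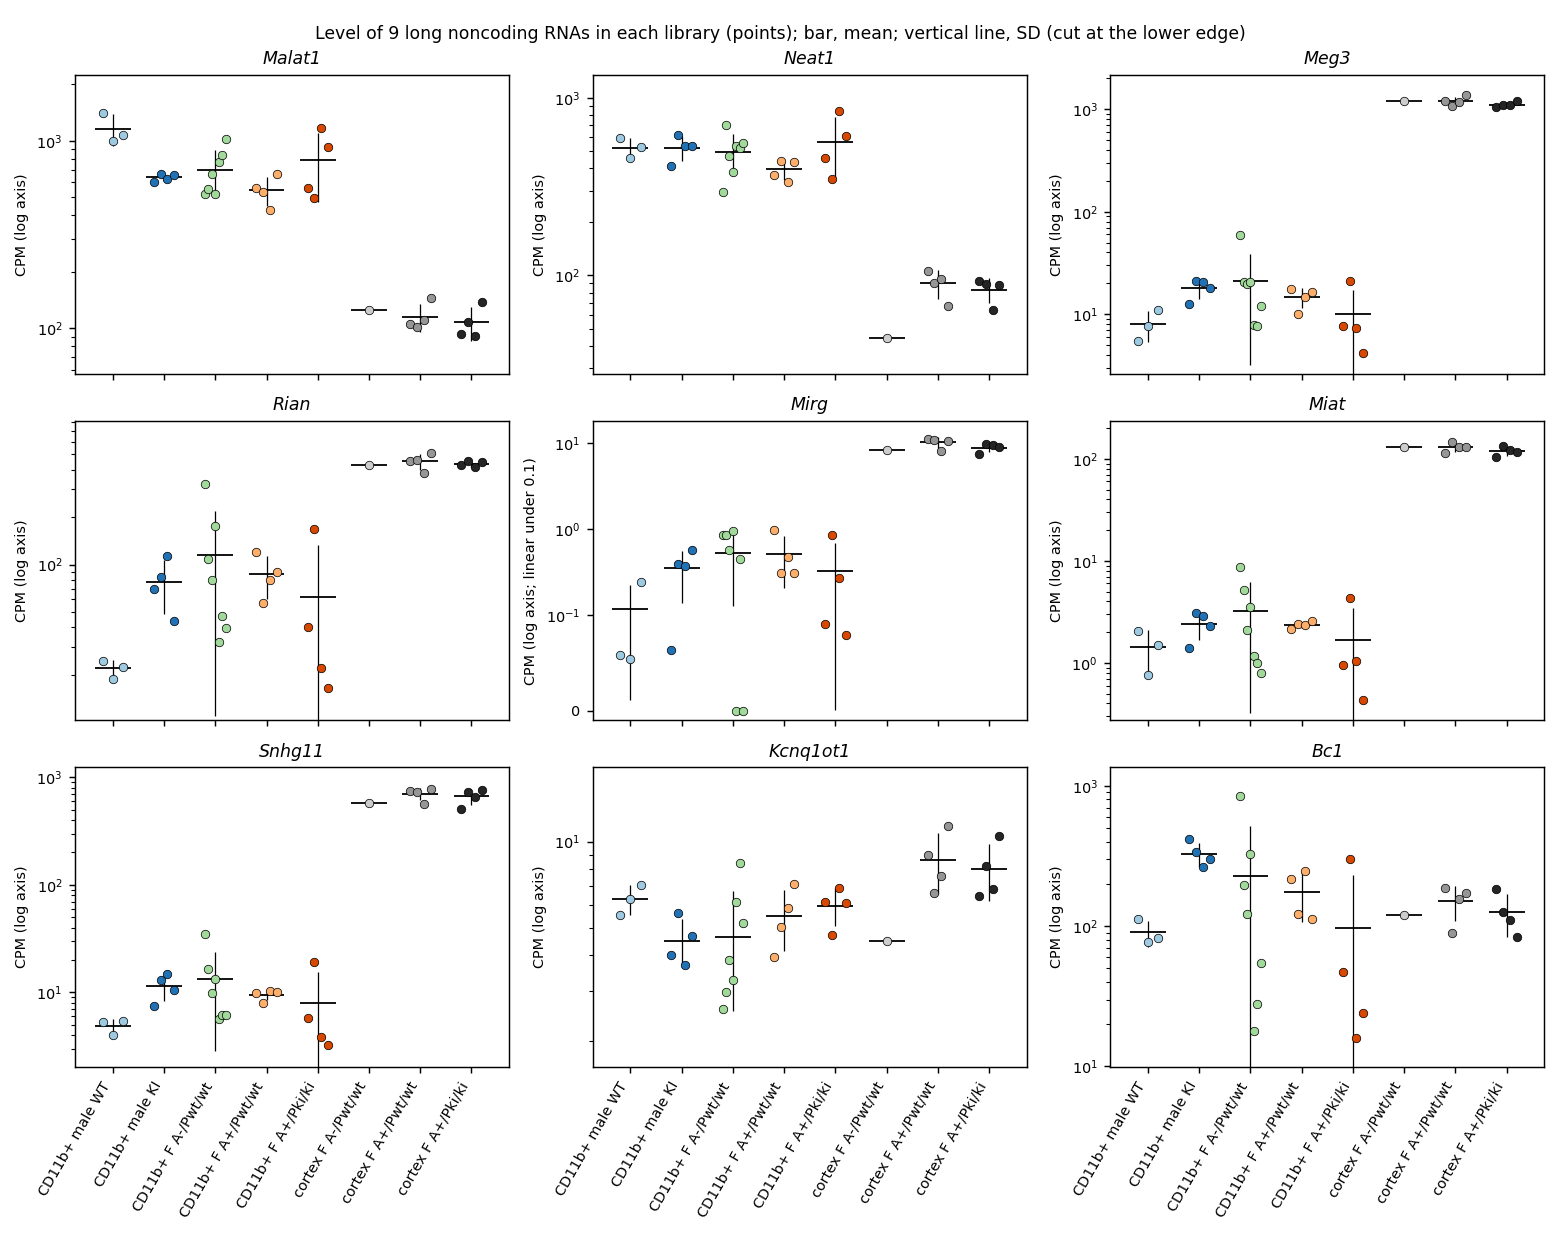
Level of each of the 9 RNAs (CPM, log axis) in every library, by group; points are libraries, bars are group means and vertical lines are SD. Malat1 and Neat1 sit higher in all CD11b+ libraries than in cortex, Meg3, Rian, Mirg, Miat and Snhg11 sit lower, and Bc1 spans 15.9 to 845 CPM in CD11b+ libraries around its cortex values of 84.2 to 187.

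The tissues were then compared within genotype, 4 CD11b+ against 4 cortex libraries, with edgeR's quasi-likelihood test and Benjamini-Hochberg adjustment over all genes tested. In A+/Pwt/wt females Malat1 and Neat1 were higher in CD11b+ libraries, 6 RNAs were higher in cortex, and Bc1 was the 1 member with no difference that passed. That made 8 of 9 members, where 77.9% of all 18541 genes tested passed (37.7% higher and 40.2% lower in CD11b+). In this bulk comparison fewer cells of a type and less RNA per cell cannot be told apart, and brain region and RNA extraction differed along with the tissue.

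Malat1 read 426, 536, 563 and 662 CPM in the 4 A+/Pwt/wt CD11b+ libraries and 101, 105, 110 and 144 CPM in cortex. It was 4.99-fold higher in CD11b+ (log2 fold change 2.32 ± 0.17 SE, adjusted p = 2.59e-07). Neat1 read 337, 369, 435 and 443 CPM against 67.1, 90.9, 95.8 and 106 CPM, 4.61-fold higher (2.20 ± 0.16, adjusted p = 3.29e-07). The tissues overlapped for neither RNA, where 73.1% of all genes tested did not overlap (33.3% with CD11b+ higher and 39.8% with CD11b+ lower). Both differed by less than any of 17 microglial genes, which were all higher in CD11b+ by log2 3.88 to 5.27 with a median of 4.75.

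Meg3 read 10.1, 14.8, 16.5 and 17.6 CPM in A+/Pwt/wt CD11b+ libraries against 1084, 1174, 1214 and 1366 CPM in cortex, 78.4-fold lower (log2 fold change -6.29 ± 0.20, adjusted p = 2.68e-09). Snhg11 read 7.97, 9.84, 10.1 and 10.2 CPM against 567, 727, 750 and 771 CPM, 70.6-fold lower (-6.14 ± 0.16). For Miat the values were 2.14, 2.35, 2.38 and 2.55 CPM against 115, 129, 130 and 147 CPM, 52.8-fold lower (-5.72 ± 0.13, adjusted p = 1.90e-09 for both). No CD11b+ library of the 3 RNAs came near a cortex library. All 22 neuronal genes were lower in CD11b+ too, at log2 fold changes of -5.16 to -1.98 (median -4.19), and Meg3, Snhg11 and Miat fell further than every one of them.

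Rian read 57.3, 79.6, 89.9 and 120 CPM in CD11b+ and 383, 453, 459 and 509 CPM in cortex, 4.97-fold lower (log2 fold change -2.31 ± 0.20, adjusted p = 1.25e-06), a smaller fall than that of 21 of the 22 neuronal genes. Mirg, the host of a microRNA cluster, was at 0.308 to 0.974 CPM against 8.20 to 11.3 CPM, 18.8-fold lower (-4.23 ± 0.31). Of 5 coding genes of the locus 4 were lower in CD11b+, among them Begain (-1.70) and Dlk1 (-1.94), a membrane protein related to Notch ligands. Kcnq1ot1 was 1.51-fold lower (-0.60 ± 0.22, adjusted p = 0.0267), but its libraries overlapped between tissues, and the call was lost in 4 of the 8 fits without 1 library (adjusted p = 0.0517 to 0.0819).

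Bc1 read 113, 123, 217 and 249 CPM in A+/Pwt/wt CD11b+ libraries and 90.1, 156, 173 and 187 CPM in cortex. The groups overlapped, and the difference did not pass (log2 fold change 0.28 ± 0.28, adjusted p = 0.384), with a sign that turned under scaling by library totals (-0.11). Its position among neuronal RNAs was read next. Among mRNAs known to be carried into dendrites, Camk2a, the kinase subunit of the postsynaptic density (-1.57), Nrgn, its calmodulin-binding neighbour (-3.17), and Ppp1r9b, the spine protein spinophilin (-0.39), were lower in CD11b+. All 12 such mRNAs looked at were lower, at log2 fold changes of -3.26 to -0.385 with a median of -1.76. Bc1 lay above all 12 and above all 22 neuronal genes. These positions are a description and were not tested as a list.

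In A+/Pki/ki females 7 of 9 members passed, with 76.6% of the 18954 genes tested (36.8% higher and 39.8% lower). Malat1 (log2 fold change 2.91 ± 0.30) and Neat1 (2.80 ± 0.27) were higher, and Meg3 (-6.75 ± 0.56), Snhg11 (-6.33 ± 0.67), Miat (-6.12 ± 0.67), Mirg (-4.76 ± 0.60) and Rian (-2.77 ± 0.72) were lower. Without mouse 335 the lower values were -7.39 for Meg3, -7.21 for Snhg11, -7.18 for Miat, -5.92 for Mirg and -3.99 for Rian. Kcnq1ot1 did not pass (-0.39 ± 0.20, adjusted p = 0.103), except under library totals (adjusted p = 0.0302). Bc1 read 15.9, 24.0, 47.0 and 299 CPM in CD11b+ libraries against 84.2, 110, 127 and 184 CPM in cortex. The value of mouse 335 lay above all cortex libraries and the other 3 below all of them. The difference did not pass with mouse 335 (-0.33 ± 0.86, adjusted p = 0.737) and passed without it (-2.05, adjusted p = 0.00183, with 81.9% of genes called in that fit). Mouse 335 also had the highest neuron score of its group, 5.53 against 2.37 to 3.73. In the A+/Pki/ki fit with mouse 335, Bc1 lay above all 22 neuronal and all 12 dendritic genes, whose medians were -4.89 and -2.56. Its position among them without mouse 335 is not given here.

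**Figure D2:**
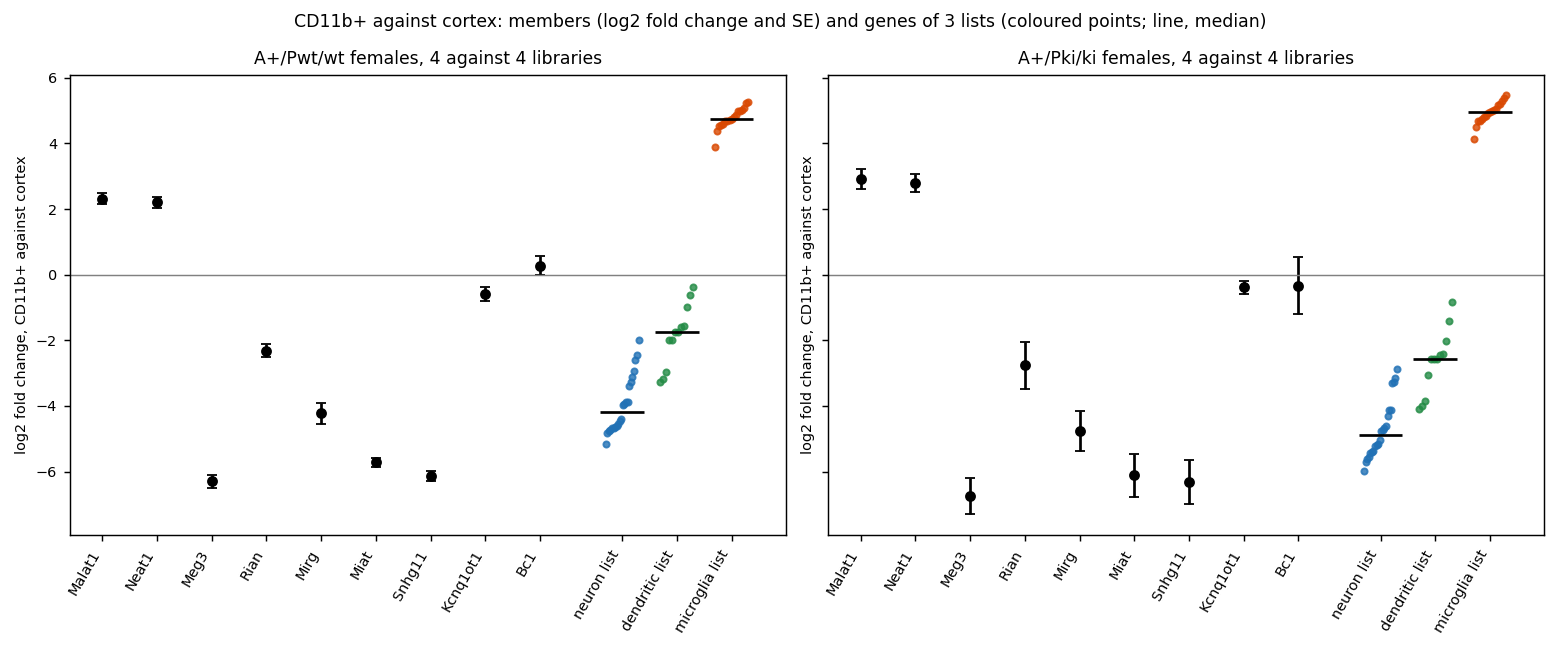
Log2 fold change between CD11b+ and cortex libraries (vertical axis) for the 9 members with SE, beside the single genes (points) and medians (lines) of the neuronal, dendritic and microglial lists, in A+/Pwt/wt and A+/Pki/ki females. Meg3, Miat and Snhg11 lie below the neuronal genes, and Malat1 and Neat1 between 0 and the microglial genes. Bc1 lies above all neuronal and dendritic genes at 0.28 and -0.33, the latter with an SE of 0.86 and mouse 335 included.

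Other genes tied to these RNAs by place or function were read in the same A+/Pwt/wt comparison, in which 77.9% of all genes passed (37.7% higher and 40.2% lower). Of 12 other nuclear long noncoding RNAs, 4 were higher and 5 lower in CD11b+. Peg13, an imprinted RNA of brain, was lower (log2 fold change -1.71), and Tug1 was at -0.11 (adjusted p = 0.465). Of 13 snoRNA hosts other than Snhg11, 11 were higher, with Gas5 at 2.00, Zfas1 at 1.54 and Snhg12 at 1.44, and none was lower, also at an unadjusted p under 0.05. Of 23 nuclear speckle and splicing genes, 19 were higher with a median of 0.70, and of 15 paraspeckle proteins 8 were higher and 4 lower. Of 11 protein partners of Bc1, 6 were higher and 2 lower, with the poly(A)-binding protein gene Pabpc1 at 2.38. Of 8 genes of the Kcnq1 domain, 5 were higher, among them Cd81 (1.73).

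Within a library the counts of a nuclear RNA can be set over those of Bc1, which removes the scaling between libraries. Malat1 reads outnumbered Bc1 reads in 21 of 22 CD11b+ libraries, with a ratio of 0.614 to 73.4 (median 4.92), and in 3 of 9 cortex libraries, with a ratio of 0.503 to 1.64. For Meg3 the order was the reverse. Its ratio to Bc1 was 0.0300 to 0.462 in CD11b+ libraries and 5.68 to 14.2 in cortex. Rian over Bc1 was 0.146 to 1.81 in CD11b+ libraries and 2.33 to 5.31 in cortex.

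The Malat1 ratio was 12.6 to 13.1 in the 3 male WT and 1.45 to 2.37 in the 4 male KI libraries. Such a gap was not particular to Malat1. Neat1 over Bc1 was 5.29 to 6.42 in male WT against 0.991 to 2.04 in male KI, and Kcnq1ot1 over Bc1 was 0.0493 to 0.0863 against 0.00965 to 0.0168. The ratio to Bc1 did not overlap between the male genotypes for 85.6% of 16372 genes (85.5% with KI lower and 0.0794% with KI higher), and Bc1 itself and the neuron score were higher in KI. In the female groups it was 0.614 to 43.5 in A-/Pwt/wt, 1.71 to 5.86 in A+/Pwt/wt and 1.66 to 73.4 in A+/Pki/ki, and these overlapped. The lowest A+/Pki/ki ratio was that of mouse 335.

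**Figure D3:**
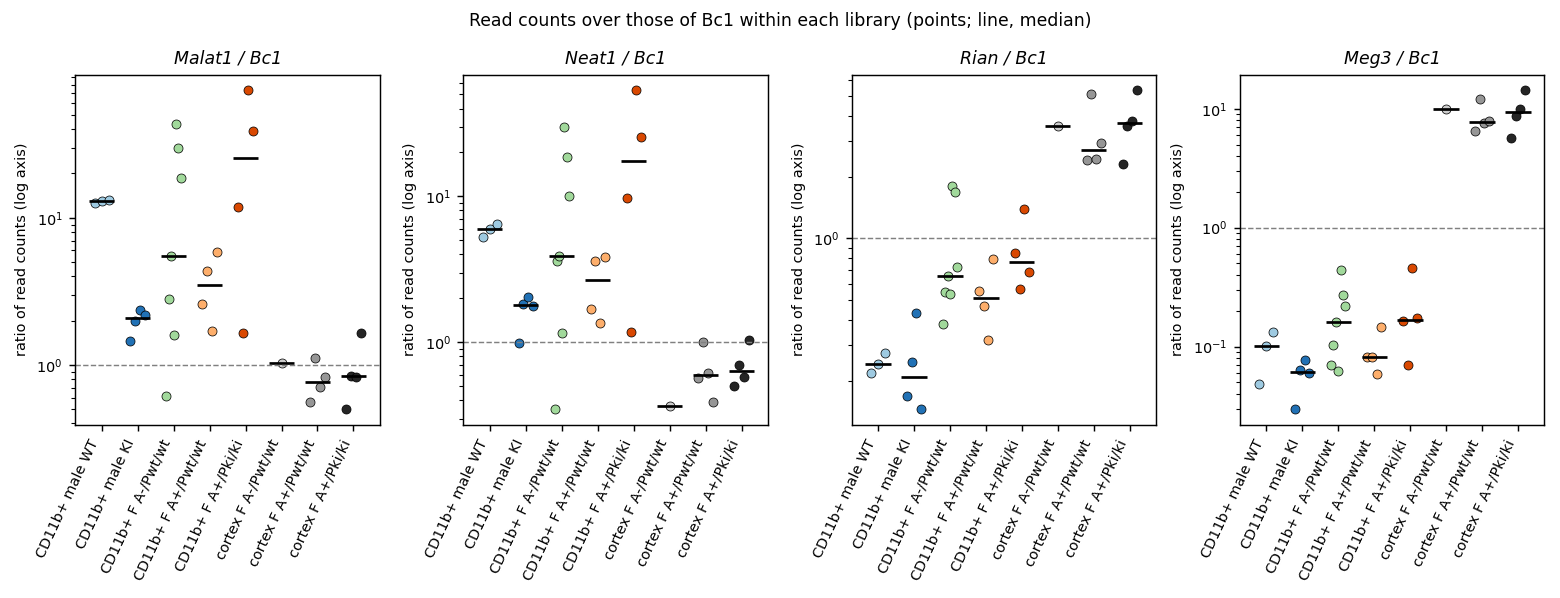
Read counts of a nuclear RNA divided by those of Bc1 in the same library (log axis), by group; points are libraries, short lines medians, and the dashed line marks equal counts. Malat1 over Bc1 is 12.6 to 13.1 in male WT and 1.45 to 2.37 in male KI CD11b+ libraries, while Meg3 over Bc1 is above 1 in cortex alone.

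The 7 female CD11b+ A-/Pwt/wt libraries share genotype, sex, age and batch tag, and their neuron scores ran from 3.27 to 6.58. Over these 7, each member was fitted against the score. Bc1 read 17.8 CPM at the lowest, 122 at the median and 845 at the highest, a 47.5-fold range. Malat1 read 519, 668 and 1020 CPM at the same points. The mouse with the most Bc1, number 223, had the least Malat1 and the highest score, while the mouse with the least Bc1, number 242, had 773 CPM of Malat1.

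In this fit 6 of 9 members passed (edgeR, adjusted over 16603 genes), where 25.3% of genes passed (16% with a positive and 9.26% with a negative slope). For each unit of the score, which is a doubling of the mean neuronal level, Bc1 rose by log2 1.49 ± 0.19 (adjusted p = 0.00034). Its slope was the 40th highest of the 16603, above those of all 22 neuronal genes (median 0.97) and all 12 dendritic mRNAs (median 1.02). The 22 neuronal genes make up the score, so their slopes centre near 1 by construction and are no independent reference. Rian rose by 1.01 ± 0.07 (adjusted p = 8.44e-06), Miat by 0.97 ± 0.20, Meg3 by 0.76 ± 0.12 and Snhg11 by 0.76 ± 0.10. The slope of Rian lay above those of 14 of the 22 neuronal genes and that of Meg3 above 2.

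Malat1 had a negative slope that passed, -0.30 ± 0.07 (adjusted p = 0.014). Neat1 (-0.26 ± 0.11, adjusted p = 0.0927), Kcnq1ot1 (-0.43 ± 0.15, adjusted p = 0.0651) and Mirg (1.24 ± 0.55, adjusted p = 0.124) did not pass. Each of these 3 calls depended on the fit. The slope of Neat1 passed under library totals (adjusted p = 0.00941) and without mouse 224 (0.00912), that of Kcnq1ot1 under library totals (0.0106), by DESeq2 (0.0445) and without mouse 243 (0.0495), and that of Mirg by DESeq2 (0.0125) and without mouse 223 (0.0424). Of 23 speckle and splicing genes 13 had negative slopes that passed (median -0.22), as had 4 of 15 paraspeckle proteins and 4 of 17 microglial genes (median -0.18). Over all genes tested, 9.26% had negative and 16% positive slopes that passed. All 13 mitochondrially encoded mRNAs had positive slopes that passed (median 0.86), as did all 15 astrocyte and all 12 oligodendrocyte genes. The slopes are shares of a library and do not say which cells gave the reads.

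**Figure D4:**
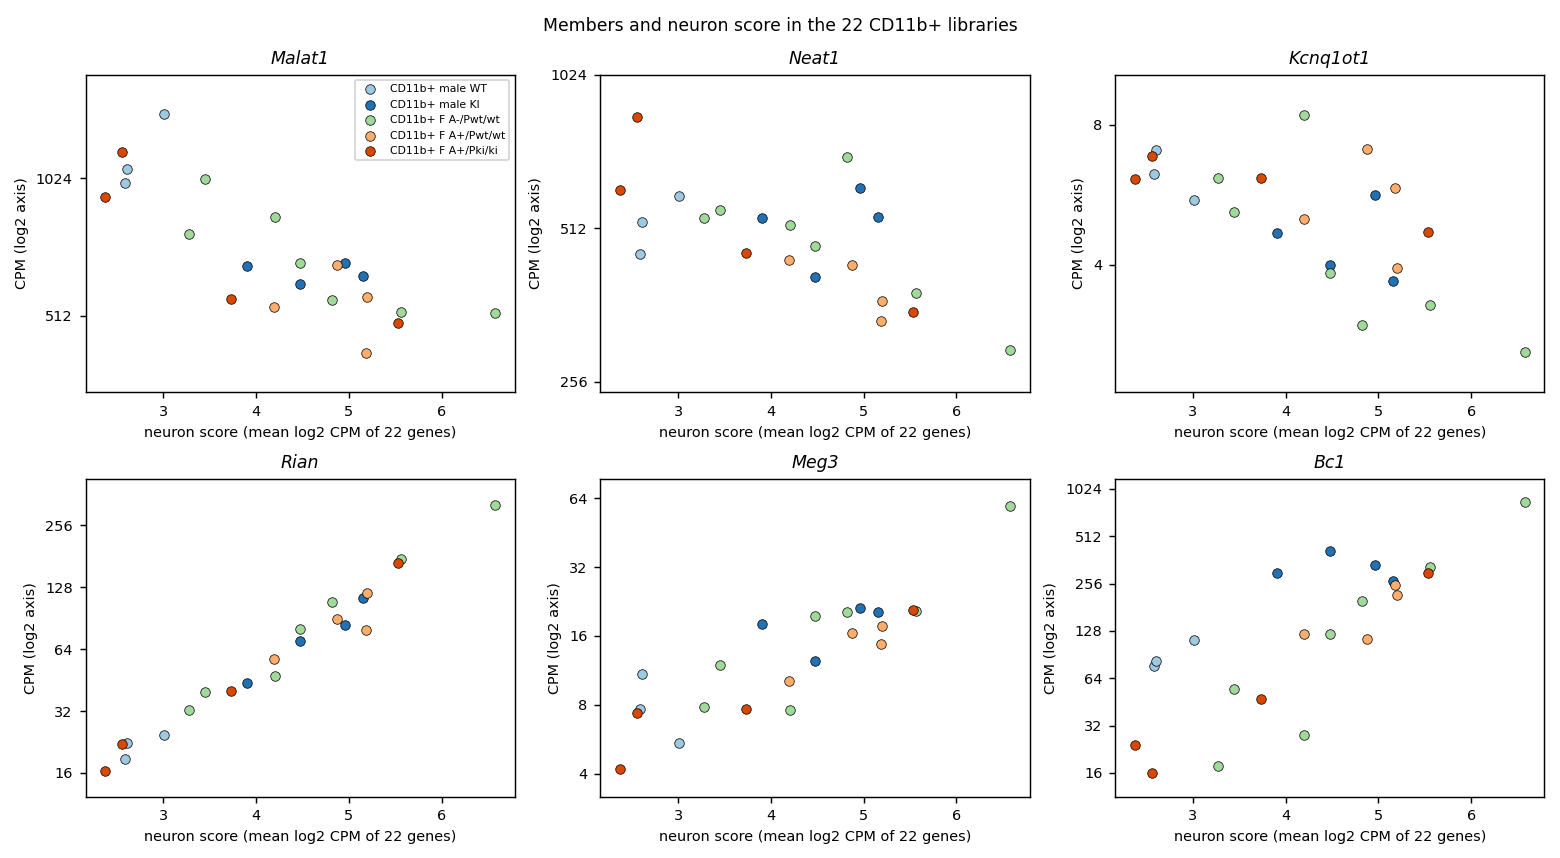
Level of members (CPM, log2 axis) against the neuron score (mean log2 CPM of 22 neuronal genes) in the 22 CD11b+ libraries, coloured by group. Bc1 spans 15.9 to 845 CPM and is highest at the highest score of 6.58, whereas Malat1 spans 426 to 1413 CPM and is at 519 CPM there.

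Across all 22 CD11b+ libraries, which differ in sex, genotype and batch tag, Pearson correlations of log2 CPM are given as a description. Meg3, Rian, Miat and Snhg11 correlated with one another at 0.86 to 0.94 and with Bc1 at 0.78 to 0.82. Malat1 correlated with Neat1 at 0.65 and with Bc1 at -0.63. Of 11430 genes compared, the 3 most like Bc1 were Wwc1, the scaffold protein KIBRA (r = 0.91), Cadm2, a synaptic adhesion molecule (r = 0.91), and Gng13, a G protein subunit (r = 0.91). The 3 most like Malat1 were the splicing factor gene Sf1 (r = 0.90), Sbno2 (r = 0.87) and the cytokine gene Clcf1 (r = 0.87). All share the libraries, their scaling and their neuronal RNA.

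The effect of PLCγ2-P522R without amyloid was read in male CD11b+ microglia, 4 KI against 3 WT. In KI libraries Bc1, Rian, Snhg11 and Meg3 were higher and Malat1 was lower. These were 5 of the 8 members tested, with Mirg too low to test, where 16.4% of the 16373 genes tested passed (11.1% higher and 5.26% lower). In each of the 5 the KI and WT libraries did not overlap, which held for 30.8% of all genes tested (15.3% with KI higher and 15.4% with KI lower).

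Bc1 read 264, 300, 336 and 415 CPM in KI and 76.7, 81.9 and 112 CPM in WT, 3.65-fold higher (log2 fold change 1.87 ± 0.19, edgeR adjusted p = 0.00374). It was the 5th of all genes by p. Rian read 44.0, 69.8, 83.8 and 114 CPM against 18.7, 22.5 and 24.5 CPM, 3.54-fold higher (1.82 ± 0.28, adjusted p = 0.00505). Every KI value of both RNAs was above every WT value.

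Snhg11 read 7.43, 10.6, 13.0 and 14.8 CPM in KI and 3.99, 5.28 and 5.38 CPM in WT (log2 fold change 1.23 ± 0.25, adjusted p = 0.0122). Meg3 read 12.4, 18.0, 20.4 and 21.2 CPM against 5.46, 7.70 and 10.9 CPM (1.16 ± 0.26, adjusted p = 0.017). Both calls were lost without WT mouse 102 (adjusted p = 0.0517 and 0.0657), where 5.52% of genes passed.

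Malat1 read 600, 626, 657 and 667 CPM in KI and 997, 1075 and 1413 CPM in WT, 1.82-fold lower (log2 fold change -0.87 ± 0.15, adjusted p = 0.00674). Its neighbour Neat1 read 411, 536, 538 and 614 CPM in KI and 456, 526 and 592 CPM in WT, with means of 525 CPM in both and no difference that passed (-0.0024 ± 0.16, adjusted p = 0.994). Kcnq1ot1 (-0.48 ± 0.20, adjusted p = 0.133) and Miat (0.73 ± 0.39, adjusted p = 0.223) did not pass either.

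Markers of neurons moved with the male genotype. The neuron score was 3.90 to 5.15 in KI and 2.58 to 3.01 in WT libraries, without overlap, and the summed level of the 22 neuronal genes was 539 to 1163 CPM against 226 to 304 CPM. Mitochondrial reads were 7.40% to 12.8% in KI and 3.97% to 5.02% in WT libraries. All 22 were higher in KI (median log2 fold change 2.06), as were all 12 dendritic mRNAs (median 2.06), all 15 astrocyte genes (median 1.14), 8 of 12 oligodendrocyte genes and 12 of 13 mitochondrial mRNAs (median 1.27). Of 14 endothelial and mural genes 5 were higher (median 0.78), as were 2 of 7 oligodendrocyte precursor genes (median 0.75). Over all genes tested, 11.1% passed as higher and 5.26% as lower. No neuronal marker was at 0 in a male library. Bc1 and Rian each lay above 7 of the 22 neuronal genes and Meg3 below all of them. With the neuron score as a covariate, in a fit of 7 libraries whose groups do not overlap in the score, no gene passed by edgeR (788 genes, 2 of them members, at an unadjusted p under 0.05). In that fit the 5 members called before had log2 fold changes of 1.81 for Bc1, -0.072 for Rian, 0.40 for Snhg11, 1.02 for Meg3 and -1.06 for Malat1 (adjusted p = 0.957 to 0.986). The part of neuronal RNA in these differences cannot be told apart from genotype here.

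Among the genes near the members in function, 9 of 23 speckle and splicing genes were lower in male KI libraries (median -0.24). Of all genes tested by edgeR in this comparison, 5.26% were lower and 11.1% higher. The 9 included the helicase Ddx17 (-0.39, adjusted p = 0.0416) and the splicing coactivator Srrm2 (-0.62, adjusted p = 0.0295), while Ddx5 was at -0.24 (adjusted p = 0.255). Of 15 paraspeckle proteins 1 was lower, of 11 other nuclear long noncoding RNAs Tug1 was lower (-0.39, adjusted p = 0.029), and of 13 snoRNA hosts Zfas1 was higher (0.57, adjusted p = 0.0392). At an unadjusted p under 0.05 by edgeR these were 4 of the 11 RNAs, 3 of them lower, and 7 of the 13 hosts, 3 of them lower. Among all 16373 genes tested, 5452 reached that threshold. None of 11 partners of Bc1 and none of 8 Kcnq1 domain genes passed by edgeR, with 2 of each at an unadjusted p under 0.05. Of 3 coding genes of the Dlk1-Dio3 locus that could be tested, Begain was higher (2.22). Of the 17 microglial genes 1 was called lower (median -0.32), and 3 had an unadjusted p under 0.05 by edgeR, all 3 lower. All 17 lay below Neat1, which was at -0.0024.

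In APP/PS1 females the knock-in was compared with wild-type Plcg2 in 4 against 4 CD11b+ libraries. No member of 8 tested passed by edgeR or DESeq2, none had an unadjusted p under 0.05, and no gene at all did by edgeR (0% of 17039; 575 genes had an unadjusted p under 0.05, and DESeq2 called 7). Bc1 read 15.9, 24.0, 47.0 and 299 CPM in A+/Pki/ki and 113, 123, 217 and 249 CPM in A+/Pwt/wt (log2 fold change -0.88 ± 0.88, adjusted p = 0.853). Mouse 335 lay above all A+/Pwt/wt libraries and the other 3 A+/Pki/ki libraries below them.

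Malat1 read 495, 557, 930 and 1167 CPM in A+/Pki/ki and 426, 536, 563 and 662 CPM in A+/Pwt/wt (0.48 ± 0.28, adjusted p = 0.853). Neat1 was at 351, 458, 608 and 845 CPM against 337, 369, 435 and 443 CPM (0.47 ± 0.25, adjusted p = 0.853). Both groups overlapped, and the lowest A+/Pki/ki value of each RNA was that of mouse 335. Rian (-0.51), Meg3 (-0.59), Miat (-0.52) and Snhg11 (-0.28) had adjusted p = 0.853 to 0.882. Without mouse 335 these values were -1.74 for Rian, -1.22 for Meg3, -1.56 for Miat and -1.15 for Snhg11, and that of Bc1 was -2.60, with none of them called (adjusted p = 0.0754 to 0.0784 over the 5). With the neuron score as a covariate the signs of Malat1, Neat1, Meg3, Rian, Miat, Snhg11 and Kcnq1ot1 turned, again with no call. The medians of the neuronal and dendritic lists were -0.83 and -0.84, with none of their genes called or at an unadjusted p under 0.05. Of 9 neutrophil genes 8 had an unadjusted p under 0.05 by edgeR, none of them lower in A+/Pki/ki and none called. Among all 17039 genes tested, 575 reached that threshold.

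In cortex the same comparison gave values near 0. Bc1 read 84.2, 110, 127 and 184 CPM in A+/Pki/ki and 90.1, 156, 173 and 187 CPM in A+/Pwt/wt (log2 fold change -0.28 ± 0.23), and Malat1 was at -0.11 ± 0.14. None of the 9 members passed or had an unadjusted p under 0.05, and no gene passed by edgeR (0% of 18640; 514 at an unadjusted p under 0.05, 11 called by DESeq2). The other 7 members lay between -0.060 and -0.21, and all adjusted p were 1.00.

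The APP/PS1 effect itself was read in females, 4 A+/Pwt/wt against 7 A-/Pwt/wt CD11b+ libraries, whose batch tags differ, so that transgene and batch cannot be told apart. None of the 9 members passed by edgeR or by DESeq2 or had an unadjusted p under 0.05, where 1.29% of 17355 genes passed (1.01% higher and 0.282% lower). Malat1 was at 426 to 662 CPM (n = 4) against 519 to 1020 CPM (log2 fold change -0.36 ± 0.22, adjusted p = 0.676), and Bc1 at 113 to 249 CPM against 17.8 to 845 CPM (-0.34 ± 0.83, adjusted p = 0.979). The sign of Bc1 turned without mouse 223 (0.46) and with the neuron score as a covariate (0.18). For Malat1, 1 A+/Pwt/wt library lay below the A-/Pwt/wt range, and for Bc1 all 4 lay within it. All 8 border macrophage genes looked at were lower in A+/Pwt/wt at an unadjusted p under 0.05 (edgeR), where 1755 of 17355 genes reached it. Their summed mean level was 743 CPM against 1392 CPM in A-/Pwt/wt.

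Finally, the difference between the knock-in effect in males and that in APP/PS1 females was tested in one fit of both. Sex, transgene and batch tag all differ between the 2 settings. Malat1 had a difference of -1.32 ± 0.34 and Bc1 of 2.78 ± 1.04, and none of the 9 members passed (adjusted p = 0.143 to 0.345, with 5 at an unadjusted p under 0.05), nor did any gene by edgeR (0% of 17619; 4664 at an unadjusted p under 0.05). At that unadjusted threshold all 22 neuronal, all 12 dendritic, all 13 mitochondrial and 14 of 15 astrocyte genes had positive differences by edgeR. Of 17 microglial genes 3 had negative ones. DESeq2 called 1 member, Malat1 (-1.37, adjusted p = 0.0202), with 6.62% of genes. Without mouse 335 edgeR called 6 members, among them Malat1 (-1.57, adjusted p = 0.00221), Bc1 (4.44, adjusted p = 0.000251) and Rian (3.52, adjusted p = 0.000385), where 35.4% of genes passed.

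**Figure D5:**
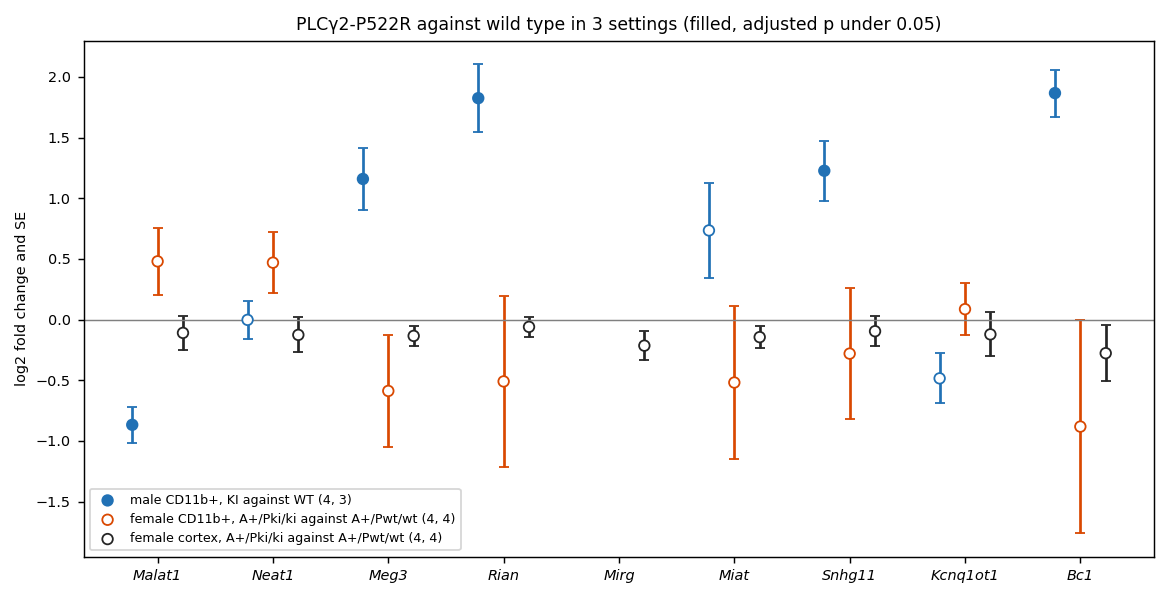
Log2 fold change and SE of PLCγ2-P522R against wild type for each member in male CD11b+, APP/PS1 female CD11b+ and APP/PS1 female cortex libraries; filled points passed at an adjusted p under 0.05. In males Bc1, Rian, Snhg11 and Meg3 are above 0 and Malat1 is below it, in APP/PS1 female CD11b+ libraries the errors are wide and none passed, and in cortex all values lie between -0.28 and -0.060.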

How the data were processed

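Per the study's methods, RNA was selected with oligo(dT) and sequenced as paired reads of 150 bases. Per the submitters' processing notes, the authors checked reads with FastQC 0.11.7, trimmed them with Trimmomatic 0.39, aligned them with STAR 2.7.9a to GRCm38 with GENCODE M25 and counted them per gene, without strand, with featureCounts (2.12.0). The deposited count tables were used as they stand, and the authors' normalized tables were not used. Counts were fitted with edgeR 4.0.16 (TMM, quasi-likelihood) in R 4.3.3, with genes kept at 10 or more counts in at least 3 fitted libraries, Benjamini-Hochberg adjustment over all tested genes and a threshold of 0.05. Only libraries of the groups compared entered a fit. Alternatives were DESeq2 1.42.0, other scalings, no filter and leaving out each library. The neuron score as a covariate was added after the data were seen. The members, gene lists and comparisons were chosen with earlier results of these data known. Genes named are the 9 members, label checks, abundant genes of each list and the 3 genes most like Malat1 and Bc1; a few list genes and Mbp were named after their values were seen. Coordinates and transcripts are from GENCODE M21, which held all 9 members. Tests were checked on simulated data, and the outcome of that check is not given here.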

Additional observations from a re-analysis of the deposited data

Results flagged for a closer look

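Members were looked at in 54 combinations of gene and group of 4 to 7 libraries, and in 8 of them 1 library stood far from the rest of its group. The rule's rate of about 1 in 20 holds for independent, normally distributed values. CPM values are skewed and the members share libraries, so the count of 8 cannot be set against that rate. Of the 8, 7 were high values of neuronal members or Bc1 in 2 CD11b+ libraries, both with the highest neuron score of their group. In A+/Pki/ki mouse 335 had 299 CPM of Bc1, with 47.0 next, 169 CPM of Rian, with 39.9 next, 4.29 CPM of Miat and 19.0 CPM of Snhg11. In A-/Pwt/wt mouse 223 had 845 CPM of Bc1, with 328 next, 59.2 CPM of Meg3 and 34.8 CPM of Snhg11. Mitochondrial reads were 19.4% and 24.5% of these libraries, the highest of their groups. In cortex, A+/Pki/ki mouse 216 had 63.6 CPM of Neat1 where the others had 87.6 to 92.4 CPM. The part of neuronal RNA in these values was not tested.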

How the results depend on the processing

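No paired analysis was possible because replicate numbers are mouse numbers and the groups compared share none. Over alternatives other than leaving out a library, 277 of 303 member log2 fold changes kept direction and side of the threshold, 6 passed anew, 4 lost their call with the neuron score as a covariate and 16 changed sign, of which Rian in male KI had been called. With the neuron score as a covariate, the male KI comparison called 0 genes and 0 members, with Rian at -0.072 and Miat at -0.32. Under the same covariate the knock-in in female CD11b+ turned to -0.0075 for Malat1, -0.0055 for Neat1, 0.025 for Meg3, 0.20 for Rian, 0.020 for Miat, 0.32 for Snhg11 and -0.075 for Kcnq1ot1, and the APP/PS1 comparison called 683 genes with Bc1 at 0.18. Neat1 in male KI turned to 0.00017 with DESeq2 size factors and by DESeq2, and to 0.031 with no filter. Mirg under APP/PS1 turned to 0.0081 with library totals and 0.012 with no filter, and Bc1 between A+/Pwt/wt tissues to -0.11 with library totals. DESeq2 called 7 genes for the knock-in in female CD11b+, 636 for APP/PS1, 11 in cortex, and 1167 genes and 1 member for the difference of knock-in effects. Scaling by library totals called 129 genes for APP/PS1 and 8143 on the neuron score slope, and no filter called 40 in cortex. Leaving out 1 library gave 894 to 5439 genes and 3 to 5 members in male KI, 0 to 1 genes for the knock-in in female CD11b+, 91 to 497 for APP/PS1, 0 to 2 in cortex, 2793 to 5076 on the slope, and 0 to 6199 genes and 0 to 6 members for the difference of knock-in effects. It also turned the sign of values that had not passed. These ran from -0.084 to 0.13 for Neat1 in male KI and from -0.042 to 0.25 for Kcnq1ot1 under the knock-in in female CD11b+. Under APP/PS1 they ran from -0.60 to 0.074 for Rian, -0.52 to 0.19 for Mirg, -0.60 to 0.0030 for Miat and -0.57 to 0.46 for Bc1. In cortex they ran from -0.26 to 0.014 for Malat1, -0.12 to 2.9e-05 for Rian, -0.18 to 0.0067 for Snhg11 and -0.29 to 0.036 for Kcnq1ot1, and between A+/Pki/ki tissues from -2.05 to 0.031 for Bc1. Under library totals the median log2 fold change of all genes was -0.12 in male KI (-0.0012 with TMM), -0.42 between A+/Pwt/wt tissues (-0.055), -0.37 between A+/Pki/ki tissues (-0.084), -0.21 for the slope (-0.024) and -0.20 for the difference of knock-in effects (0.014). Causes were not tested.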

Other observations

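Mbp and Mobp, a pair of myelin genes chosen after their values were seen, were higher in CD11b+ libraries than in cortex. Mbp, myelin basic protein, was at 29306 CPM in A+/Pwt/wt CD11b+ libraries and 1941 CPM in cortex (edgeR log2 fold change 3.98 ± 0.32), and Mobp at 10824 and 554 CPM (4.35 ± 0.29). Mbp and Mobp were the 2 higher genes of the 12 in the oligodendrocyte list, and 7 were lower.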
